A study of Arabidopsis thaliana with 12 samples.

Results

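Arabidopsis seedlings that had met a milder heat the day before were compared with seedlings that met the same severe heat without it. The members were the 6 libraries of both 43 °C groups, taken by their labels, of 12 libraries in the series. All seedlings were wild-type Col-0, grown whole in liquid culture and harvested with the cotyledons open. The 3 unprimed libraries (heat shock) came from 7-day-old seedlings held at 43 °C for 30 min. The 3 primed libraries (priming and heat shock) came from seedlings of the same age given 38 °C for 2 h, 21 °C for 22 h and then 43 °C for 30 min. The other groups were untreated 6-day-old seedlings (control) and 6-day-old seedlings taken after 38 °C for 30 min (priming), with 3 libraries each. They entered the fit, and so its filter, scaling and shared estimate of spread, but are otherwise used here only for levels. The general treatment text gives 2 h for both temperatures, whereas the sample labels give 30 min for 43 °C. Heating took place in a water bath in the light, from 2 h into the day. The comparison addresses which transcripts differed in level after 43 °C in seedlings with an earlier 38 °C treatment and its 22 h of recovery. No library from the end of the recovery, before 43 °C, was analysed here, so a difference already present before the second heat and a difference made during it cannot be told apart.

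Plants exposed to a sublethal heat acquire tolerance of a later, otherwise lethal one, a memory that fades over days. Heat shock factors drive the first wave of chaperone genes, and some of their targets stay high or are switched on faster at the next heat. Severe heat itself halts much transcription and translation, damages photosystem II and fluidises membranes, so that chloroplast, defence, hormone and water relations genes are all commonly affected in seedlings.

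Each library was depleted of ribosomal RNA and held 89027278 to 129161546 aligned reads, of which 0.421% to 0.934% fell on ribosomal RNA entries that were left out. Nuclear genes received 41852531 to 59964933 reads per library. Plastid genes took 45.7% to 57.4% of the counts, and the psbA transcript alone 33.8% to 43.8%, so levels in CPM (a count scaled to the library total and by the TMM factors of edgeR) are levels within a pool that the plastid dominates. Levels are not per length, and are compared between libraries only. Root, shoot and antenna genes were all detected, as whole seedlings should show. Replicate numbers follow the harvest date in the labels, but nothing says that the replicates came from separate seed batches, and the spread behind each p-value may then be technical in part.

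The earlier 38 °C treatment went with a broad difference after 43 °C. Of 26159 sequences tested, 3161 (12.1%) were higher and 2806 (10.7%) lower in the primed libraries at an adjusted p under 0.05 (edgeR's quasi-likelihood test with Benjamini-Hochberg adjustment), 22.8% in all. Most of these differences were small: 789 of the higher and 803 of the lower ones passed 2-fold. The median log2 difference over all sequences tested was -0.00294. The primed libraries lay wholly above the unprimed ones for 21.5% of sequences and wholly below for 20.8%. Called genes named below were picked by the test, so separate groups in them are no further evidence. Without primed replicate 1 the count of lower calls was 1851. The chart of gene lists sets 50 lists of known function against the called shares. Where a list count below stands without them, 12.1% higher and 10.7% lower are the shares to set beside it. The lists and their members were chosen with earlier results of these data known, so the comparison is descriptive only. A bare number in brackets after a gene name is its log2 difference, primed minus unprimed, with its standard error where one follows.

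**Figure D1:**
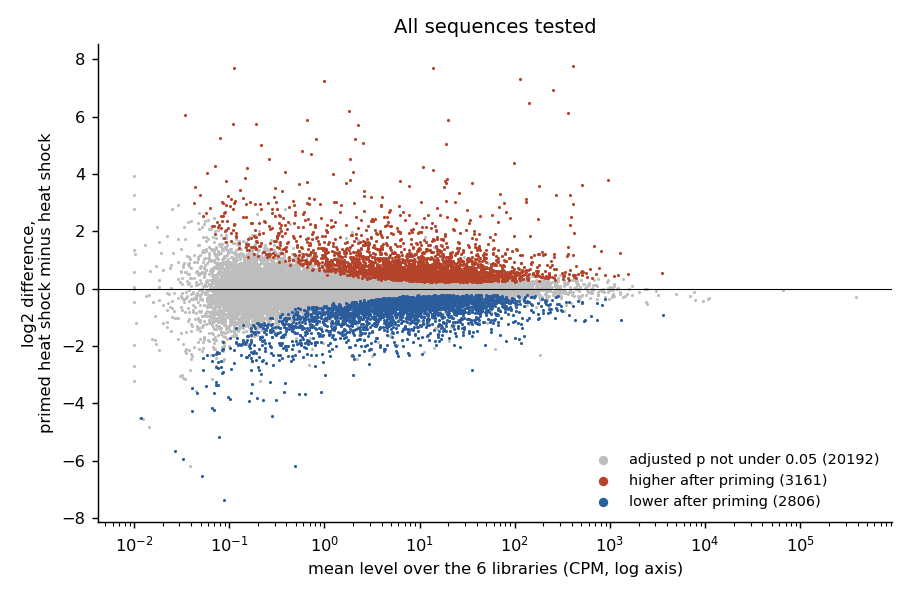
Log2 difference between primed and unprimed heat-shocked seedlings (vertical axis) against the mean level over the 6 libraries in CPM (horizontal log axis, levels under 0.01 drawn at 0.01), 1 point per sequence. The 3161 higher and 2806 lower sequences are spread over the whole range of levels, and HSP21 lies at a log2 difference of 7.77.

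**Figure D2:**
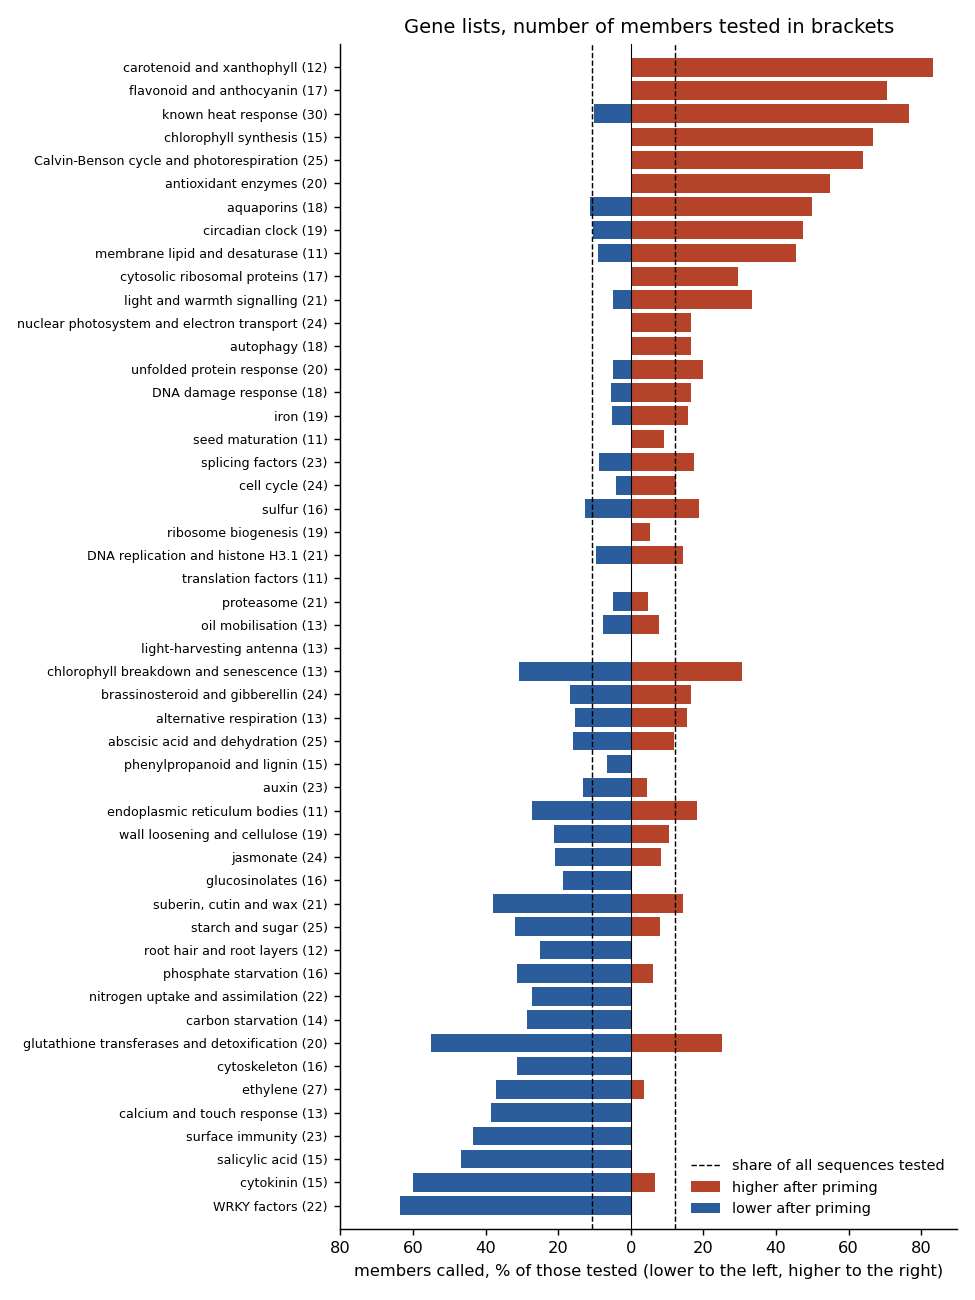
Share of the tested members of each of 50 gene lists that were called higher (to the right) or lower (to the left) in primed seedlings, in percent. Dashed lines mark the shares over all sequences, 12.1% higher and 10.7% lower; the carotenoid list reaches 83.3% higher and the WRKY list 63.6% lower.

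The 3 largest increases among well-expressed nuclear genes with a symbol outside the lists were ABCF2, FTSH6 and AGAL1. The 3 largest decreases were KCS12, IGMT4 and Hsp70-2. Several list members, such as HSP21 and FLS2, differed by more. The promoters of both sets are shown because these are the extremes among such genes of at least 20 CPM. Each is the 250 bases before the RefSeq gene start in TAIR10.1, all on the minus strand, written 5′ to 3′. Capitals mark any of 6 motif kinds, searched on both strands with overlapping matches counted: the heat shock element GAANNTTC, the W-box TTGACC or TTGACT that WRKY factors bind, the GCC box GCCGCC of ethylene response factors, the G-box CACGTG, the evening element AAATATCT and the dehydration-responsive element ACCGAC or GCCGAC.
ABCF2, chr5:3100292-3100541:
ABCF2: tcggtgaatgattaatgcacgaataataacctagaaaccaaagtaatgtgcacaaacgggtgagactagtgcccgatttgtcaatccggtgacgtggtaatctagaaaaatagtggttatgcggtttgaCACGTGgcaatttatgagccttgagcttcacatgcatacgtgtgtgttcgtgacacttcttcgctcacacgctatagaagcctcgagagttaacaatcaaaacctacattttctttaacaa
FTSH6, chr5:4952804-4953053:
FTSH6: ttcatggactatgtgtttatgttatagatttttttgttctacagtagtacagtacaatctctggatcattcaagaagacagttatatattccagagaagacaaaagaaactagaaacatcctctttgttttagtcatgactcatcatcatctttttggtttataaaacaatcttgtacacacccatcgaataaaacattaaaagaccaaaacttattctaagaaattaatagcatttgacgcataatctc
AGAL1, chr5:2697782-2698031:
AGAL1: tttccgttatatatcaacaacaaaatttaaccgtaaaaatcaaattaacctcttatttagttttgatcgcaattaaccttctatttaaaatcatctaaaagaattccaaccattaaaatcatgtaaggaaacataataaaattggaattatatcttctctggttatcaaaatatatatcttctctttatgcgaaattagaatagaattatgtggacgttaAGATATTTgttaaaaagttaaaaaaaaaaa
KCS12, chr2:12277418-12277667:
KCS12: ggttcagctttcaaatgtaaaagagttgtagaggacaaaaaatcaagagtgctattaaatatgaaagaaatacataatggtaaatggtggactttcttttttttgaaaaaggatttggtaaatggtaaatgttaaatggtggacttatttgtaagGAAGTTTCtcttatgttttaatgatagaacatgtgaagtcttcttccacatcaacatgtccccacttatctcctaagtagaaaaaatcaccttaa
IGMT4, chr1:7400737-7400986:
IGMT4: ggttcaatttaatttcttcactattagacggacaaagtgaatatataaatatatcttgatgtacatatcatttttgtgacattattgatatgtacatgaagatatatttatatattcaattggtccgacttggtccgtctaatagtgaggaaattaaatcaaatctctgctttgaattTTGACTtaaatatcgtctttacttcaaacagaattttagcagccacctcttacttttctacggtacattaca
Hsp70-2, chr5:552828-553077:
Hsp70-2: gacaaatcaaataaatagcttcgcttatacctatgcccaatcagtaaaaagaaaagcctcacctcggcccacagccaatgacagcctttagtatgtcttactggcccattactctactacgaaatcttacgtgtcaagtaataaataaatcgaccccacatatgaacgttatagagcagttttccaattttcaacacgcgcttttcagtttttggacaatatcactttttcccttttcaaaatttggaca
The ABCF2 promoter held a G-box, that of AGAL1 an evening element, that of KCS12 a heat shock element and that of IGMT4 a W-box. Those of FTSH6 and Hsp70-2 held none of the 6 as spelled above. The heat shock element was searched as GAANNTTC only. Other spellings of it, in FTSH6 or elsewhere, were not counted, so its absence from a promoter is not shown. Among the 15 largest increases, a G-box stood in 4 promoters (26.7%), against 6.49% of 27443 protein-coding promoters of the same length. It stood in 0 of the 15 largest decreases. In the spelling searched, the heat shock element stood in 1 of the 15 increases (6.67%) and 5 of the 15 decreases (33.3%), against 9.55% of all. Whether this contrast holds with other spellings was not tested. The W-box stood in 4 and 7 of 15, against 28.4% of all. The evening element was present in 1 increase and 0 decreases (4.79% of all), the dehydration-responsive element in 2 and 0 (7.09%), and the GCC box in neither set (1.87%). These are matches of letters, not bound sites.

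The known heat genes serve as a reference for size. Of 30, 23 were higher and 3 lower, with a median log2 difference of 1.45. The plastid small heat shock protein HSP21 had 3.37, 4.46 and 3.43 CPM in the unprimed libraries and 878, 704 and 881 CPM in the primed ones. The cytosolic ascorbate peroxidase APX2 had 1.11, 1.58 and 1.67 CPM in the unprimed libraries and 241, 217 and 228 CPM in the primed ones, and the small heat shock protein HSP18.2 3.99, 4.73 and 3.54 CPM in the unprimed libraries and 506, 515 and 471 CPM in the primed ones. For each the groups lay far apart, with log2 differences of 7.77, 7.30 and 6.93. The 3 lower members were all regulators: the heat shock factors HSFA2 (-1.64) and HSFA7A (-1.06), and DREB2A (-0.77), a dehydration- and heat-responsive factor. HSFA2 stood at 1602 ± 84.3 CPM (SD, n = 3) after 38 °C, 189 ± 23.0 after 43 °C alone and 60.5 ± 11.4 after both. The inducible chaperone HSP70 did not pass the test, with 1526, 1863 and 1600.2 CPM in the unprimed libraries and 1774, 1573 and 1992 CPM in the primed ones.

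MIPS2, UGP2, GOLS1 and AGAL1, which make or use inositol, UDP-glucose and galactinol sugars, all rose. MIPS2 (AT2G22240), which makes myo-inositol phosphate from glucose 6-phosphate, had 81.8, 78.5 and 69.2 CPM in the unprimed libraries and 959, 879.9 and 975 CPM in the primed ones. It was 12.3-fold higher after priming (log2 difference 3.62 ± 0.11 (SE), adjusted p = 3.36e-12). UGP2 (AT5G17310), which makes UDP-glucose, had 32.3, 25.9 and 24.9 CPM in the unprimed libraries and 159, 150.4 and 147 CPM in the primed ones, a 5.49-fold rise (log2 difference 2.46 ± 0.10 (SE), adjusted p = 2.76e-10). GOLS1, the heat-induced galactinol synthase of the known heat list, had 112, 151 and 126 CPM in the unprimed libraries and 1911, 1617 and 1836 CPM in the primed ones. AGAL1 (AT5G08380), an alpha-galactosidase, which removes terminal galactose from such sugars, had 2.59, 3.24 and 2.44 CPM in the unprimed libraries and 39.6, 32.0 and 35.2 CPM in the primed ones (log2 difference 3.69 ± 0.18 (SE), adjusted p = 3.94e-09). In all 4 genes the groups did not overlap, which for MIPS2, UGP2 and AGAL1 was a condition of their choice. The genes fall under no list of their own and were picked by size, so no count over a pathway is given.

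Of the other large increases outside the lists, 6 are genes of plastid proteins, picked here by their size. FTSH6 (AT5G15250), a thylakoid protease that in Arabidopsis degrades HSP21, had 2.54, 2.32 and 2.89 CPM in the unprimed libraries and 35.2, 32.5 and 40.9 CPM in the primed ones (log2 difference 3.81 ± 0.14 (SE), adjusted p = 4.75e-11). HCF152 (AT3G09650), which processes the plastid psbB operon transcript, had 14.1, 12.5 and 11.5 CPM in the unprimed libraries and 68.4, 68.8 and 80.9 CPM in the primed ones (log2 difference 2.52 ± 0.13 (SE), adjusted p = 2.15e-09). Its level after 38 °C was 12.1 ± 0.708 CPM and in untreated seedlings 16.3 ± 3.07 CPM, so of the 4 groups it was high in the primed heat-shocked seedlings. HCF152 starts at chr3:2958676, shortly after APX2 ends on the same strand at chr3:2958330. Whether reads running on from APX2, whose large rise is given above, add to the HCF152 count was not tested. PTAC17 (log2 difference 2.43 ± 0.09) belongs to the plastid transcriptionally active chromosome, EGY3 (2.55 ± 0.16) is a plastid relative of site-2 proteases, and cpHsc70-1 (2.22 ± 0.09) is the stromal chaperone of protein import and folding. ELIP1, which binds chlorophyll in strong light, had 129, 119.8 and 99.1 CPM in the unprimed libraries and 803, 555 and 616 CPM in the primed ones. Separate groups were a condition for naming genes outside the lists, so the lack of overlap lends these 6 genes no further weight. ELIP1 was higher still after 38 °C alone, at 1823 ± 167 CPM. So were EGY3, at 270 ± 18.4 CPM against 97.6 ± 11.1 in the primed libraries, and cpHsc70-1, at 762 ± 14.8 against 623 ± 28.3. FTSH6 (17.9 ± 1.32 CPM) and PTAC17 (17.0 ± 1.64 CPM) stood lower after 38 °C alone than after both heats.

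ABCF2 (AT5G09930), an ABC-type ATPase of the GCN20 group without membrane domains, showed the largest rise of the 15 genes named outside the lists. It had 1.14, 1.13 and 0.968 CPM in the unprimed libraries and 23.9, 19.99 and 17.43 CPM in the primed ones, 18.9-fold higher (log2 difference 4.24 ± 0.19 (SE), adjusted p = 5.94e-10). SYTD (AT5G11100), a synaptotagmin of membrane contact sites, had 5.77, 4.07 and 4.23 CPM in the unprimed libraries and 47.1, 52.1 and 42.8 CPM in the primed ones. The remaining members of the upper 15 were HSP70T-2 (3.14), a truncated HSP70, ARLA1A (2.38), an ARF-like GTPase, the ADP/ATP carrier AAC3 (2.28) and LCR68 (2.19), a plant defensin. LCR68 stood at 22.04 ± 4.38 CPM in untreated seedlings, near its primed level of 23.7 ± 3.40, and at 5.21 ± 0.844 after 43 °C alone. Of the 15, 7 overlap an annotated neighbour in RefSeq, whose reads could add to the count: ABCF2, FTSH6, MIPS2, EGY3, HCF152, PTAC17 and cpHsc70-1.

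**Figure D3:**
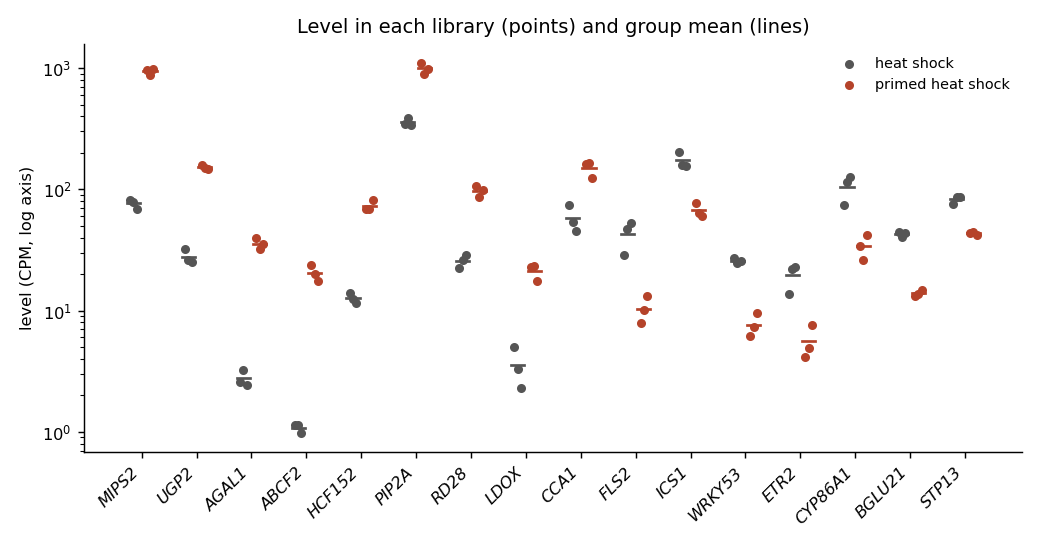
Level of 16 genes in each library (points, CPM, log axis) with the mean of the 3 unprimed (grey) and 3 primed (red) libraries as lines. The groups are separate for every gene drawn: MIPS2 to CCA1 are higher and FLS2 to STP13 lower in the primed libraries. For MIPS2, UGP2, AGAL1, ABCF2 and HCF152 separate groups were a condition of choice.

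The 15 largest decreases outside the lists, among genes with a symbol, were of mixed known roles. KCS12 (AT2G28630), a fatty acid elongase subunit of epidermal lipids, had 21.5, 23.47 and 26.6 CPM in the unprimed libraries and 5.58, 5.89 and 6.81 CPM in the primed ones (log2 difference -1.97 ± 0.20 (SE), adjusted p = 1.77e-05). IGMT4 (AT1G21130), which methylates indole glucosinolates, had 75.1, 80.03 and 75.8 CPM in the unprimed libraries and 16.4, 19.9 and 22.8 CPM in the primed ones (log2 difference -1.97 ± 0.18 (SE), adjusted p = 7.36e-06). Hsp70-2 (AT5G02490), a cytosolic HSP70, had 198, 188 and 165 CPM in the unprimed libraries and 49.0, 40.5 and 57.6 CPM in the primed ones, a 3.74-fold lower level in primed seedlings. The groups were separate in each case, as the choice of these genes required. The potassium transporter HAK5 had 173, 161 and 133 CPM in the unprimed libraries and 47.2, 54.4 and 41.0 CPM in the primed ones. LHB1B1 (AT2G34430), a chlorophyll a/b-binding protein of photosystem II, had 129, 198 and 190.5 CPM in the unprimed libraries and 49.7, 44.4 and 57.4 CPM in the primed ones, with a log2 difference of -1.77 ± 0.22. The other 10 ranged from -1.83 (XBAT34, an ankyrin-repeat ubiquitin ligase) to -1.35 (CRK11, a cysteine-rich receptor-like kinase). They were EDF3, an ethylene response factor (-1.66), the extensin EXT3 (-1.63), the wall protein ECS1 (-1.62), the methionine sulfoxide reductase MSRB9 (-1.46), the aquaglyceroporin NLM1 (-1.46), the ammonium transporter AMT2 (-1.42), the polyol transporter PMT6 (-1.40) and ABCG20, an exporter needed for suberin (-1.40). In whole seedlings fewer cells of a type and less RNA per cell cannot be told apart, here or below.

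Transcripts of pattern-triggered immunity were lower in primed seedlings. Of 23 genes, 10 fell and 0 rose, with a median log2 difference of -0.48, against 10.7% lower over all sequences. The flagellin receptor FLS2 had 28.8, 47.0 and 53.1 CPM in the unprimed libraries and 7.97, 10.05 and 13.1 CPM in the primed ones, 4.14-fold lower (log2 difference -2.05 ± 0.25 (SE), adjusted p = 1.28e-04). The elf18 receptor EFR had 12.8, 13.1 and 13.9 CPM in the unprimed libraries and 7.65, 7.54 and 7.69 CPM in the primed ones (-0.80), and the chitin receptor CERK1 fell by less (-0.34). Downstream, the receptor kinase FRK1, an early flagellin marker, had 24.1, 32.1 and 36.3 CPM in the unprimed libraries and 9.55, 9.54 and 9.23 CPM in the primed ones (log2 difference -1.71 ± 0.13 (SE), adjusted p = 2.01e-07), and CYP81F2, which modifies indole glucosinolates, had 7.34, 9.75 and 10.5 CPM in the unprimed libraries and 1.71, 2.07 and 2.30 CPM in the primed ones. Receptor partners BAK1 (-0.30) and BIK1 (-0.46), the kinases MPK3 (-0.54) and MPK11 (-0.61) and the factor CBP60G (-1.47) were also lower. No library of either group crossed into the other for these 10, which the test had picked. Of all 23, 13 were wholly lower and 0 wholly higher, against 20.8% and 21.5% of all sequences. FLS2 stood at 13.6 ± 1.77 CPM in untreated seedlings and 5.51 ± 1.16 CPM after 38 °C, so the unprimed heat-shocked seedlings held the highest level of the 4 groups. RBOHD, the oxidase of the immune burst, did not pass the test, with 146, 137 and 129 CPM in the unprimed libraries and 103, 80.9 and 139.8 CPM in the primed ones.

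Salicylic acid genes showed the same direction in synthesis and signalling: 7 of 15 tested fell and 0 rose, with a median of -0.58. The synthesis gene ICS1 had 202, 159.7 and 157 CPM in the unprimed libraries and 76.9, 64.1 and 59.6 CPM in the primed ones (log2 difference -1.37 ± 0.12 (SE), adjusted p = 6.92e-07). PBS3, which conjugates glutamate to isochorismate, had 49.0, 30.3 and 30.8 CPM in the unprimed libraries and 17.5, 10.4 and 6.86 CPM in the primed ones (log2 difference -1.67 ± 0.37 (SE), adjusted p = 0.00935). The exporter EDS5 had a log2 difference of -0.67 ± 0.13. In signalling, SAG101 (-1.02 ± 0.08), PAD4 (-0.58 ± 0.14), EDS1 (-0.56 ± 0.08), which act as complexes, and the receptor NPR1 (-0.40 ± 0.08) fell. The groups were separate for all 7, which the test had picked. Of the 15 tested, 9 were wholly lower and 0 wholly higher, against 20.8% and 21.5% of all sequences. The output marker PR1 and ALD1 did not pass the filter on low counts, and BGL2, which did not pass the test, had 0.789, 7.36 and 1.29 CPM in the unprimed libraries and 1.57, 0.248 and 0.0822 CPM in the primed ones, with overlapping groups.

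Among 22 stress-responsive WRKY transcription factors, which bind the W-box, 14 fell and 0 rose (median -0.59), and all 22 had a log2 difference below 0. WRKY53 had 26.9, 24.6 and 25.4 CPM in the unprimed libraries and 6.12, 7.26 and 9.53 CPM in the primed ones (log2 difference -1.75 ± 0.22 (SE), adjusted p = 1.16e-04). WRKY22, which acts after flagellin, had 51.3, 65.9 and 70.5 CPM in the unprimed libraries and 31.4, 30.9 and 44.3 CPM in the primed ones (log2 difference -0.82 ± 0.17 (SE), adjusted p = 0.00306), and WRKY33, a regulator of camalexin, 68.2, 48.0 and 52.1 CPM in the unprimed libraries and 31.003, 31.2 and 43.5 CPM in the primed ones (log2 difference -0.67 ± 0.17 (SE), adjusted p = 0.00959). These groups were separate. WRKY38 was near 0, with 0, 0.238 and 0.0698 CPM in the unprimed libraries and 0, 0 and 0 CPM in the primed ones, and no fold is given; its call was lost without unprimed replicate 2 or without primed replicate 1, 2 or 3. WRKY40 did not pass the test: its primed replicates 1 and 2 stood at 17.0 and 13.3 CPM but replicate 3 at 49.7 CPM, above all unprimed libraries (46.5, 38.3 and 38.5 CPM). Without primed replicate 2, 9 WRKY genes were called, and WRKY54 was among those lost.

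Ethylene perception and response genes were lower too, with 10 of 27 lower, 1 higher and a median of -0.46. The receptors ETR2 (-1.81 ± 0.31), ERS2 (-0.94 ± 0.20) and ERS1 (-0.65 ± 0.11), whose transcripts rise with ethylene, fell, as did the kinase CTR1 (-0.73 ± 0.12) that they act through. ETR2 had 13.8, 22.01 and 22.8 CPM in the unprimed libraries and 4.17, 4.96 and 7.57 CPM in the primed ones. EBF1 and EBF2, the F-box proteins that degrade EIN3 and are themselves its targets, had log2 differences of -0.84 ± 0.13 and -1.19 ± 0.20; EBF2 had 121, 158 and 176 CPM in the unprimed libraries and 59.1, 64.8 and 76.3 CPM in the primed ones. Of the response factors ERF1 (-2.06), ERF5 (-0.75) and ERF11 (-1.41) fell. Primed replicate 3 stood apart from the other primed libraries in some of these genes. ERF11 had 8.85 and 7.42 CPM in primed replicates 1 and 2 and 21.7 CPM in replicate 3, and the synthesis gene ACS6, which did not pass the test, had 138, 116 and 112 CPM in the unprimed libraries and 81.0, 67.1 and 179 CPM in the primed ones. Without primed replicate 3, 17 of the 27 were lower. ERF11 lost its call without unprimed replicate 1, 2 or 3, without primed replicate 1 or 2, with no filter on low counts or with the 6 libraries fitted alone. In ethylene synthesis the oxidase EFE fell (-0.43 ± 0.10).

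Jasmonate genes were mixed: 5 of 24 fell and 2 rose, 20.8% and 8.33%, against 10.7% and 12.1% over all sequences. The synthesis enzymes AOS (56.1, 50.8 and 47.9 CPM in the unprimed libraries and 30.2, 29.5 and 34.8 CPM in the primed ones) and AOC2 (-0.96) fell, as did LOX2, which was near 0 (0.420, 0.238 and 0.454 CPM in the unprimed libraries and 0.166, 0.139 and 0.0616 CPM in the primed ones) and lost its call without unprimed replicate 1 or 3, without primed replicate 1, 2 or 3 or with the replicate block. The repressor JAZ6 fell (-0.52), whereas the repressors JAZ12, with 23.4, 19.4 and 19.6 CPM in the unprimed libraries and 37.6, 39.1 and 35.5 CPM in the primed ones, and JAZ9 (0.37) rose. Lower calls numbered 3 without unprimed replicate 1, without unprimed replicate 3 or without primed replicate 1, and 9 without primed replicate 3; higher calls numbered 1 without unprimed replicate 2, unprimed replicate 3 or primed replicate 2, or with nuclear library sizes and no factor. JAZ1 stood at 65.8 CPM in primed replicate 3 against 32.3 and 37.1 CPM in the others.

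Calcium and touch genes fell in 5 of 13 and rose in 0. The plasma membrane calcium pump ACA8 had 39.5, 35.6 and 33.9 CPM in the unprimed libraries and 18.1, 17.599 and 17.2 CPM in the primed ones (log2 difference -1.04 ± 0.11 (SE), adjusted p = 5.03e-06), the calmodulin-like TCH3 241, 232 and 242 CPM in the unprimed libraries and 126, 99.6 and 129 CPM in the primed ones, and the annexin ANN1 42.9, 53.8 and 55.8 CPM in the unprimed libraries and 28.2, 25.97 and 34.0 CPM in the primed ones. The pump ACA12 (-0.77) and CML9 (-0.47) also fell. For ACA8, TCH3 and ANN1 the lowest unprimed library was above the highest primed one. TCH3 and ANN1 overlap annotated neighbours. With the replicate block, DESeq2 or the 6 libraries alone 1 member was higher.

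Detoxification genes went both ways, with 11 of 20 lower and 5 higher (median -0.71). The phi-class glutathione transferases GSTF8, with 207, 199.6 and 183 CPM in the unprimed libraries and 111, 109.8 and 114 CPM in the primed ones, GSTF6 (-1.06), GSTF7 (-1.70) and GSTF2 (-0.43) all fell. The tau-class GSTU1, with 19.0, 26.1 and 20.9 CPM in the unprimed libraries and 59.8, 56.8 and 68.7 CPM in the primed ones, GSTU2 (2.30), GSTU3 (2.94) and GSTU19 (0.54) rose, whereas GSTU24 (-1.09) and GSTU22 (-0.75) fell. GSTU2 shares 66.7% of its 31-base words with other annotated loci, so its reads could be split. The 12-oxophytodienoate reductases OPR1 (-1.02) and OPR2 (-0.85), the glucosyltransferases UGT74E2 (-1.54) and UGT73B4 (-1.22) and the cytochrome CYP81D8 (-1.13) fell, and CYP81D11 rose (1.34). Lower calls numbered 7 without unprimed replicate 1, primed replicate 1 or primed replicate 3. GSTF7 lost its call without primed replicate 1.

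Of 16 glucosinolate genes tested, 3 fell and 0 rose. They were MYB51, the regulator of indole glucosinolates (11.4, 8.24 and 9.54 CPM in the unprimed libraries and 2.58, 3.53 and 4.33 CPM in the primed ones), the indole enzyme CYP83B1 (61.1, 74.1 and 82.5 CPM in the unprimed libraries and 43.8, 36.4 and 38.6 CPM in the primed ones), and PEN2, a myrosinase of pathogen defence (129, 138 and 153 CPM in the unprimed libraries and 73.7, 82.2 and 82.7 CPM in the primed ones). Each pair of groups was separate. The other indole genes tested, such as CYP79B2 (-0.06) and CYP79B3 (0.14), did not pass the test, and 6 of the 22 listed genes did not pass the filter on low counts.

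Endoplasmic reticulum bodies hold the beta-glucosidases with which seedlings and roots defend themselves. BGLU21 (AT1G66270) had 44.2, 40.5 and 43.7 CPM in the unprimed libraries and 13.3, 13.7 and 14.7 CPM in the primed ones (log2 difference -1.62 ± 0.12 (SE), adjusted p = 1.07e-07), BGLU22 28.8, 20.9 and 24.96 CPM in the unprimed libraries and 6.14, 8.49 and 6.52 CPM in the primed ones and the lectin-associated GLL22 16.5, 14.9 and 17.9998 CPM in the unprimed libraries and 6.49, 8.35 and 7.21 CPM in the primed ones. The glucosidase PYK10 rose, with 503, 443 and 426 CPM in the unprimed libraries and 651, 675 and 658 CPM in the primed ones, as did the jacalin JAL22 (1.34). BGLU21 stood at 150.0 ± 11.0 CPM in untreated seedlings and 15.6 ± 3.02 CPM after 38 °C, close to its primed level here. In all, 3 of 11 fell and 2 rose.

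Growth hormones followed no common direction except for cytokinin. Of 15 cytokinin genes, 9 fell and 1 rose (median -0.52). The A-type response regulators, immediate targets of the hormone, fell in ARR4 (26.45, 34.3 and 33.5 CPM in the unprimed libraries and 18.7, 21.5 and 18.4 CPM in the primed ones), ARR3 (-0.98), ARR5 (-0.95), ARR6 (-0.49) and ARR7 (-1.35). The degrading oxidases CKX3 (2.01, 4.07 and 3.83 CPM in the unprimed libraries and 0.909, 0.577 and 1.09 CPM in the primed ones), CKX4 (-1.61) and CKX5 (-0.52) and the receptor WOL (-0.50) fell, and the synthesis gene IPT3 rose (0.54). Levels of the groups were separate for ARR4 and CKX3. The lower calls numbered 5 without unprimed replicate 2, without unprimed replicate 3, without primed replicate 1 or without primed replicate 2. CKX4 lost its call without unprimed replicate 2 or 3, without primed replicate 1, 2 or 3, with the replicate block or with no filter on low counts, and ARR7 without unprimed replicate 1, 2 or 3, without primed replicate 1 or 2 or with no filter on low counts.

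In auxin, 3 of 23 fell and 1 rose, near the shares over all sequences. The root carrier PIN2 (-0.75 ± 0.16), the response factor ARF19 (-0.55 ± 0.15) and the synthesis enzyme TAA1 (-0.46 ± 0.09) fell, and the carrier PIN3 rose, with 44.1, 44.5 and 40.9 CPM in the unprimed libraries and 59.9, 60.7 and 66.8 CPM in the primed ones. In the brassinosteroid and gibberellin list 4 of 24 rose and 4 fell, 16.7% each, against 12.1% and 10.7% over all sequences. GA3OX1, which makes active gibberellin, had 3.46, 2.82 and 3.54 CPM in the unprimed libraries and 10.6, 9.62 and 9.73 CPM in the primed ones (log2 difference 1.61 ± 0.14 (SE), adjusted p = 1.12e-06), and BR6OX2, which makes brassinolide, 15.2, 12.7 and 12.3 CPM in the unprimed libraries and 28.3, 30.4 and 28.3 CPM in the primed ones (log2 difference 1.11 ± 0.16 (SE), adjusted p = 2.34e-04). On the lower side stood the DELLA repressor GAI (-0.68 ± 0.13) and the gibberellin receptors GID1B (-0.43 ± 0.14) and GID1C (-0.36 ± 0.08). Higher calls in that list numbered 2 without unprimed replicate 2 or 3 or primed replicate 1 or 3, and lower calls 2 without unprimed replicate 1 or 2 or primed replicate 1. Higher calls were also 2 with nuclear library sizes and no factor, and the auxin list had 2 with DESeq2 or the 6 libraries alone. The groups of GA3OX1 and BR6OX2 were separate. ARF19 lost its call without unprimed replicate 2 or 3 or without primed replicate 1.

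Abscisic acid and dehydration genes gave 3 higher and 4 lower of 25, or 12% and 16%, against 12.1% and 10.7% over all sequences. The dehydrin COR47 rose, with 246, 221 and 183 CPM in the unprimed libraries and 519, 470.5 and 524 CPM in the primed ones (log2 difference 1.22 ± 0.18 (SE), adjusted p = 2.52e-04), and so did the NAC factor RD26 (0.66 ± 0.12) and the phosphatase HAB1 (0.36 ± 0.09). RD22 fell, with 91.9, 74.9 and 62.1 CPM in the unprimed libraries and 36.3, 37.5 and 33.4 CPM in the primed ones, beside the proline enzyme P5CS1 (10.7, 10.5 and 10.4 CPM in the unprimed libraries and 5.05, 5.02 and 5.21 CPM in the primed ones), the phosphatase ABI1 (-0.57) and the factor ABF2 (-0.37). NCED3, the rate-limiting enzyme of abscisic acid synthesis, had 17.58, 14.6 and 12.8 CPM in the unprimed libraries and 7.11, 6.11 and 12.6 CPM in the primed ones and did not pass the test. The number of lower calls was 2 without unprimed replicate 1 or 3 or primed replicate 1 or 2, and higher calls were 7 when the 6 libraries were fitted alone and 5 with no filter on low counts. P5CS1 lost its call without unprimed replicate 1, 2 or 3, without primed replicate 1, 2 or 3 or with no filter on low counts.

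Nuclear genes for carbon fixation and pigments were higher, by small amounts. Of 25 Calvin-Benson and photorespiration genes, 16 rose and 0 fell, with a median log2 difference of 0.37 against -0.00294 over all sequences. The Rubisco activase RCA had 2853, 2931 and 2769.7 CPM in the unprimed libraries and 4475, 3908 and 4104 CPM in the primed ones, a 1.46-fold rise (log2 difference 0.55 ± 0.15 (SE), adjusted p = 0.0148). The small subunits RBCS1A, with 1234, 1304 and 1312 CPM in the unprimed libraries and 1928, 1718 and 1766 CPM in the primed ones, RBCS1B (0.50) and RBCS2B (0.60) rose. The regeneration enzymes FBA1 (0.59), PRK (0.47) and SBPASE (0.45) and the photorespiratory GOX2 (0.56) and GLDP1 (0.43) rose as well. PGLP1 (0.70) shares 95.2% of its 31-base words with another locus. Summed over the list, the unprimed libraries held 14489.8 to 15009 CPM and the primed ones 17916 to 20396 CPM. The count of calls was 8 without unprimed replicate 2, 6 without unprimed replicate 3 and 5 without primed replicate 1. RBCS2B lost its call without unprimed replicate 1, 2 or 3, without primed replicate 1 or with no filter on low counts.

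Chlorophyll synthesis rose in 10 of 15 (median 0.32) and fell in 0. The light-dependent reductase PORC had 54.5, 57.0 and 55.9 CPM in the unprimed libraries and 114, 103 and 106 CPM in the primed ones (log2 difference 0.95 ± 0.10 (SE), adjusted p = 6.27e-06), the magnesium chelatase subunit GUN5 1037, 1046 and 981 CPM in the unprimed libraries and 1539, 1290.4 and 1452 CPM in the primed ones and its activator GUN4 48.8, 42.4 and 42.4 CPM in the unprimed libraries and 78.5, 68.3 and 63.8 CPM in the primed ones; CHLI1 (0.35) and CHLD (0.32), the other chelatase subunits, rose too. The reductase PORB, which acts as leaves green, had 31.3, 39.4 and 42.9 CPM in the unprimed libraries and 17.1, 20.5 and 20.7 CPM in the primed ones and did not pass the test, although its groups were separate (-0.96); with the 6 libraries alone 1 member was lower. GUN4 shares 72.4% of its 31-base words with its overlapping neighbour. Carotenoid genes rose in 10 of 12 (median 0.45). Phytoene synthase PSY, the entry step, had 86.9, 67.9 and 68.2 CPM in the unprimed libraries and 124, 128 and 107 CPM in the primed ones, the beta-carotene hydroxylase BETA-OHASE_1 18.15, 18.19 and 15.9 CPM in the unprimed libraries and 37.7, 31.3 and 29.7 CPM in the primed ones, and the violaxanthin de-epoxidase NPQ1 8.60, 8.23 and 8.02 CPM in the unprimed libraries and 13.1, 13.1 and 10.7 CPM in the primed ones. Primed and unprimed libraries were separate for PORC, GUN5, PSY and BETA-OHASE_1. Leaving out unprimed replicate 2 or 3 or primed replicate 1 or 2 gave 6 chlorophyll calls each, and for carotenoids 5, 6, 6 and 6.

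Of 13 antenna genes 0 rose and 0 fell by edgeR at an adjusted p under 0.05, with log2 differences from -0.47 to 0.11; at an unadjusted p under 0.05, 0 were higher and 1 lower. With DESeq2 1 was lower, and 2 were when libraries were scaled to nuclear reads without a factor. LHB1B1, an antenna gene that the list does not hold, was lower by more than any of its members (-1.77, given above). LHCB1.3, of the main antenna of photosystem II, had 2351, 3074 and 2929 CPM in the unprimed libraries and 2157, 1790.5 and 2102 CPM in the primed ones (log2 difference -0.47 ± 0.17 (SE), adjusted p = 0.0563). In the nuclear photosystem and electron transport list 4 of 24 rose: PSBO2 of the oxygen-evolving complex (292, 338 and 326 CPM in the unprimed libraries and 589.9, 513 and 553 CPM in the primed ones), NPQ4, the sensor of heat dissipation (205, 194 and 201 CPM in the unprimed libraries and 358, 302 and 303 CPM in the primed ones), the ferredoxin FED (0.46) and the ATP synthase subunit ATPD (0.44). The other 20 did not pass the test, and 2 rose without unprimed replicate 2. FED lost its call without unprimed replicate 1, 2 or 3 or without primed replicate 1 or 3.

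Chlorophyll breakdown and senescence genes went both ways, with 4 of 13 higher and 4 lower. The breakdown enzymes ACD2 (22.2, 24.9 and 22.9 CPM in the unprimed libraries and 37.3, 33.8 and 38.7 CPM in the primed ones), PAO (0.43) and NYC1 (0.35) and the dechelatase NYE1 (0.34) rose. The senescence factors NAC092 (16.3, 20.6 and 21.9 CPM in the unprimed libraries and 6.99, 10.7 and 10.9 CPM in the primed ones) and NAP (-0.62) and the markers SAG21 (27.8, 24.9 and 30.5 CPM in the unprimed libraries and 10.6, 9.01 and 10.5 CPM in the primed ones) and SAG13 (-1.95, under 1.2 CPM in each library) fell. Higher calls numbered 2 without unprimed replicate 2 or 3 or primed replicate 1.

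Flavonoid and anthocyanin genes rose more steeply, in 12 of 17 with 0 lower and a median of 1.21; all 17 lay above 0. Early enzymes rose in TT4, chalcone synthase (102, 116 and 101 CPM in the unprimed libraries and 277, 212 and 248 CPM in the primed ones), TT5 (1.14), F3H (1.34) and TT7 (1.33). The late, anthocyanin-specific DFR had 20.3, 13.6 and 10.2 CPM in the unprimed libraries and 59.8, 65.1 and 52.9 CPM in the primed ones (log2 difference 2.01 ± 0.30 (SE), adjusted p = 9.24e-04) and LDOX 5.04, 3.28 and 2.30 CPM in the unprimed libraries and 22.7, 23.4 and 17.38 CPM in the primed ones (log2 difference 2.58 ± 0.33 (SE), adjusted p = 2.45e-04). The decorating enzymes UF3GT (2.46), 5MAT (2.41) and UGT78D2 (1.12) and the transferase TT19 (1.27) rose as well. For all of these, which the test had picked, the lowest primed library exceeded the highest unprimed one. Of the 17, 15 were wholly higher and 0 wholly lower, against 21.5% and 20.8% of all sequences. LDOX stood at 6.46 ± 2.70 CPM in untreated seedlings, 4.89 ± 0.661 after 38 °C, 3.54 ± 1.38 after 43 °C alone and 21.2 ± 3.298 after both. The regulator TT8 rose (0.64), PAP1 did not pass the test (1.2002, 0.920 and 0.803 CPM in the unprimed libraries and 2.15, 1.36 and 0.976 CPM in the primed ones), and MYB111 was near 0, with 0.0168, 0 and 0.0175 CPM in the unprimed libraries and 0.199, 0.183 and 0.134 CPM in the primed ones. In the phenylpropanoid and lignin list, which feeds this branch, 1 of 15 fell (CCOAOMT1, with 294, 349 and 373 CPM in the unprimed libraries and 215, 183 and 232 CPM in the primed ones) and 0 rose; 8 were lower when the 6 libraries were fitted alone, 2 with the replicate block or without primed replicate 3, and 3 with DESeq2 or with nuclear library sizes and no factor.

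Antioxidant enzymes rose in 11 of 20 and fell in 0 (median 0.47). The cytosolic peroxidase APX1 had 196, 169.9 and 166 CPM in the unprimed libraries and 357, 287 and 293 CPM in the primed ones (log2 difference 0.82 ± 0.15 (SE), adjusted p = 0.00105) and the thylakoid TAPX 15.4, 14.3 and 14.0 CPM in the unprimed libraries and 23.9, 21.8 and 22.1 CPM in the primed ones. The superoxide dismutases of the peroxisome, CSD3 (6.99, 6.50 and 6.57 CPM in the unprimed libraries and 16.8, 16.5 and 14.0 CPM in the primed ones), and plastid, CSD2 (0.57), FSD1 (0.99) and FSD2 (1.06), rose, as did the mitochondrial MSD1 (0.44). VTC2, the control step of ascorbate synthesis, had 213, 156 and 119 CPM in the unprimed libraries and 371, 322 and 265 CPM in the primed ones. The groups were separate for APX1, TAPX, CSD3 and VTC2. Catalase CAT3 (625, 636 and 589 CPM in the unprimed libraries and 525, 553 and 623 CPM in the primed ones) and cytosolic CSD1 (-0.09) did not pass the test. FSD1 lost its call without unprimed replicate 1, 2 or 3, without primed replicate 1, 2 or 3 or with no filter on low counts, and 1 member was lower without unprimed replicate 2.

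Of 19 circadian clock genes, 9 rose and 2 fell (median 0.34). CCA1 had 73.8, 54.1 and 45.1 CPM in the unprimed libraries and 163, 164 and 123 CPM in the primed ones (log2 difference 1.38 ± 0.17 (SE), adjusted p = 6.31e-05), its partner LHY 77.5, 44.6 and 47.6 CPM in the unprimed libraries and 89.6, 122 and 77.9 CPM in the primed ones, and their relative RVE1 34.9, 22.4 and 16.2 CPM in the unprimed libraries and 97.0, 94.8 and 67.2 CPM in the primed ones (log2 difference 1.82 ± 0.25 (SE), adjusted p = 3.09e-04). The morning-expressed LNK1 (0.83), LNK2 (0.74), PRR9 (0.92) and RVE8 (0.51) also rose, as did RVE2 (0.77) and the blue-light photoreceptor ZTL (0.34). The evening genes TOC1 (17.0, 16.3 and 17.62 CPM in the unprimed libraries and 12.5, 12.7 and 15.2 CPM in the primed ones) and FKF1 (3.38, 4.31 and 4.06 CPM in the unprimed libraries and 2.15, 1.79 and 2.24 CPM in the primed ones) fell. Unprimed replicate 1 was the highest unprimed library for CCA1, LHY and RVE1, and the groups were still separate for these 3. Calls higher numbered 4 without unprimed replicate 2, without unprimed replicate 3 or without primed replicate 2, and calls lower 1 without unprimed replicate 1 or 3 or primed replicate 1 or 2. With DESeq2, the 6 libraries alone or nuclear library sizes and no factor 4 were lower, and with no filter on low counts 5 were higher. All 6 libraries were made at the same labelled time of day.

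Light signalling genes rose in 7 of 21 and fell in 1. HY5, the central promoter of light responses, had 6.25, 5.37 and 4.32 CPM in the unprimed libraries and 13.4, 9.12 and 8.48 CPM in the primed ones (log2 difference 0.96 ± 0.25 (SE), adjusted p = 0.0179), and HFR1 5.88, 5.32 and 4.90 CPM in the unprimed libraries and 12.3, 11.0 and 8.74 CPM in the primed ones (log2 difference 0.99 ± 0.13 (SE), adjusted p = 4.32e-05). BBX31 (1.46), BBX25 (0.75), BBX24 (0.43), PIF7 (0.77) and the ubiquitin ligase COP1 (0.36) rose and the shade gene HB-2 fell (-0.63). PIF4, which drives warmth responses, had 15.2, 15.5 and 14.4 CPM in the unprimed libraries and 17.2, 17.9 and 18.6 CPM in the primed ones and did not pass the test. Higher calls numbered 4 without unprimed replicate 2, 2 without unprimed replicate 3 and 2 without primed replicate 1, and 4 with no filter on low counts; lower calls were 2 with the replicate block, DESeq2 or the 6 libraries alone, and 0 without unprimed replicate 1 or 2 or primed replicate 1 or 2. HY5 lost its call without unprimed replicate 2 or 3, without primed replicate 1 or with no filter on low counts, and BBX31 without unprimed replicate 2 or 3, without primed replicate 1 or 2 or with no filter on low counts.

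Water channels were another group that rose, in 9 of 18 with 2 lower (median 0.42). PIP2A had 347, 385 and 337 CPM in the unprimed libraries and 1109.8, 889 and 975 CPM in the primed ones (log2 difference 1.48 ± 0.15 (SE), adjusted p = 4.25e-06), RD28 22.3, 26.3 and 28.7 CPM in the unprimed libraries and 107, 85.9 and 99.1 CPM in the primed ones (log2 difference 1.92 ± 0.18 (SE), adjusted p = 6.00e-06) and PIP2;7 183, 206 and 196 CPM in the unprimed libraries and 525, 492 and 561 CPM in the primed ones (log2 difference 1.43 ± 0.12 (SE), adjusted p = 7.96e-07), all in the plasma membrane. The vacuolar GAMMA-TIP (64.8, 70.1 and 85.9 CPM in the unprimed libraries and 167, 157 and 171 CPM in the primed ones) and TIP2 (0.66) rose as well. Summed over the list, unprimed libraries held 2293 to 2561 CPM and primed ones 3895 to 4407 CPM. The root-enriched PIP2;4 (15.1, 16.3 and 22.8 CPM in the unprimed libraries and 5.58, 4.27 and 7.21 CPM in the primed ones) and TIP4;1 (-0.98) fell. PIP2A stood at 642 ± 78.2 CPM in untreated seedlings, above its level after 43 °C alone, 356 ± 25.5.

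**Figure D4:**
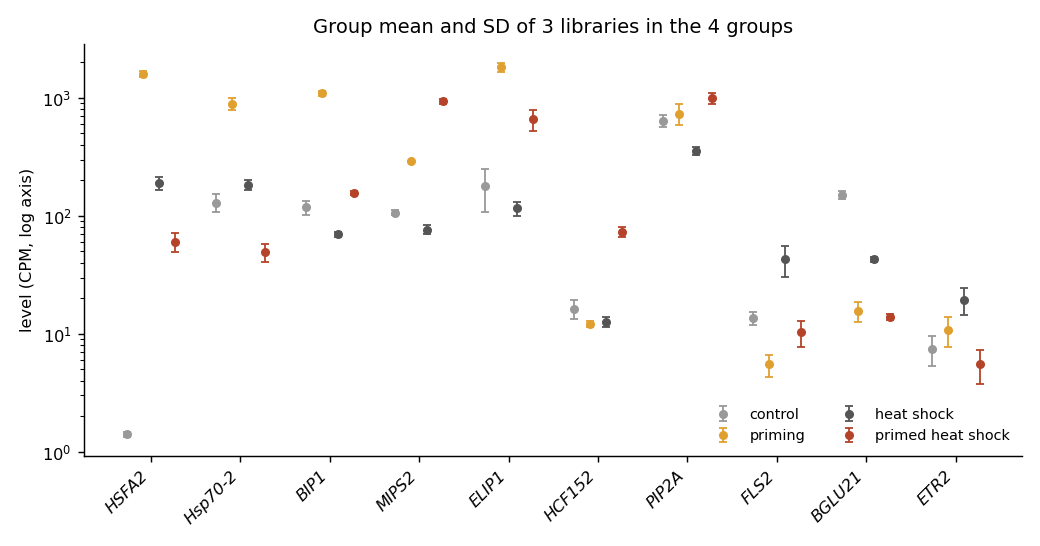
Mean level (points, CPM, log axis) and SD (bars) of 10 genes in the control, priming, heat shock and primed heat shock groups, 3 libraries each. HSFA2, Hsp70-2, BIP1 and ELIP1 are highest after 38 °C, MIPS2, HCF152 and PIP2A after both heats, FLS2 and ETR2 after 43 °C alone, and BGLU21 in untreated seedlings; ages and treatment lengths differ between groups.

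Suberin and cutin genes of the lipid barriers fell in 8 of 21 and rose in 3 (median -0.28). The suberin hydroxylase CYP86A1 had 74.5, 115 and 125 CPM in the unprimed libraries and 34.0, 25.9 and 42.2 CPM in the primed ones (log2 difference -1.62 ± 0.25 (SE), adjusted p = 8.69e-04), the acyltransferase GPAT5 15.96, 20.5 and 19.7 CPM in the unprimed libraries and 5.77, 4.64 and 7.89 CPM in the primed ones and CYP86B1 24.4, 26.3 and 28.3 CPM in the unprimed libraries and 9.62, 8.38 and 10.03 CPM in the primed ones. The cutin genes GPAT6 (-1.59), LACS2 (-1.37), CYP86A4 (-1.26) and CYP77A6 (-1.49) fell too, while FACT (0.50), CER3 (0.33) and DCR (0.78) rose. The groups were separate for CYP86A1, GPAT5 and CYP86B1. Markers of root hairs and root layers moved with them: 3 of 12 fell and 0 rose (7 with libraries scaled to nuclear reads without a factor, 6 with DESeq2), their median was -0.78, and their summed level was 75.0 to 113.2 CPM in unprimed and 60.7 to 71.8 CPM in primed libraries. None of the 12 was at 0. RSL4, a root hair factor, had 3.46, 5.23 and 5.49 CPM in the unprimed libraries and 1.15, 1.75 and 2.04 CPM in the primed ones and COBL9 6.04, 5.80 and 9.43 CPM in the unprimed libraries and 2.80, 3.06 and 3.66 CPM in the primed ones. RHD6 fell (-0.48), a call lost without unprimed replicate 1, without primed replicate 1, 2 or 3, with the replicate block or with the 6 libraries fitted alone. The ground tissue factors SCR (0.23) and SHR (0.20) did not pass the test. The part of root markers in the lower suberin genes was not tested. Of the seed maturation list, 1 of 11 rose (PER1, 0.57) and 0 fell. That was 9.09% higher, against 12.1% over all sequences.

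Wall loosening genes gave 4 of 19 lower and 2 higher, 21.1% and 10.5%, against 10.7% and 12.1% over all sequences. The xyloglucan enzymes XTH18 (11.9, 13.7 and 18.4 CPM in the unprimed libraries and 3.501, 3.23 and 6.60 CPM in the primed ones), XTH15 (-1.54), XTH19 (-1.38) and XTH33 (-1.97) fell, and XTH23 rose, with 8.43, 7.97 and 6.71 CPM in the unprimed libraries and 27.9, 19.3 and 39.9 CPM in the primed ones, beside XTH9 (0.55). No expansin and no cellulose synthase of the list passed the test. Higher calls numbered 1 without unprimed replicate 3, primed replicate 1 or primed replicate 3. XTH33 lost its call without primed replicate 1 or 2, with no filter on low counts or with the 6 libraries fitted alone. Of 16 tubulin, actin and profilin genes 5 fell and 0 rose, led by TUB1 (12.8, 16.1 and 15.6 CPM in the unprimed libraries and 8.0001, 7.06 and 7.54 CPM in the primed ones) and ACT11 (8.64, 7.88 and 8.32 CPM in the unprimed libraries and 4.38, 4.15 and 4.12 CPM in the primed ones), with ACT8 (-0.54), TUB4 (-0.47) and TUA2 (-0.39). Scaled to nuclear reads without a factor, 8 were lower; 1 was higher with DESeq2, the 6 libraries alone or without unprimed replicate 1.

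Of 25 starch and sugar genes 8 fell and 2 rose. The proton-coupled hexose importers STP1 (325, 419 and 451 CPM in the unprimed libraries and 223, 221 and 249 CPM in the primed ones), STP13 (75.4, 86.7 and 87.1 CPM in the unprimed libraries and 44.0, 44.2 and 41.8 CPM in the primed ones) and STP4 (94.9, 101 and 107 CPM in the unprimed libraries and 56.7, 59.7 and 54.7 CPM in the primed ones) were all lower, with log2 differences of -0.79 ± 0.12, -0.94 ± 0.09 and -0.82 ± 0.09. In all 3 the groups were separate. The sucrose synthases SUS1 (-0.49) and SUS4 (-1.9998), the starch kinase SEX1 (-0.44), the amylase AMY3 (-0.44) and TPS5 (-0.35) fell. The plastid beta-amylase BAM1, which acts in stress, rose, with 61.8, 61.2 and 55.5 CPM in the unprimed libraries and 164, 138 and 157 CPM in the primed ones (log2 difference 1.36 ± 0.12 (SE), adjusted p = 9.21e-07), beside ADG1 of starch synthesis (0.28). Higher calls were 4 with the replicate block, DESeq2, the 6 libraries alone or without unprimed replicate 1, and 1 without unprimed replicate 2 or 3 or primed replicate 1. Carbon starvation genes fell in 4 of 14, 10 with the replicate block, and 2 without unprimed replicate 2 or primed replicate 1. They included DRM2 (33.4, 40.9 and 42.8 CPM in the unprimed libraries and 24.6, 26.51 and 23.7 CPM in the primed ones), ASN1 (-0.93), DIN2 (-0.56) and GDH2 (-0.53); ASN1 lost its call without unprimed replicate 2 or 3, without primed replicate 1 or 2 or with no filter on low counts, and DIN2 without unprimed replicate 2 or without primed replicate 1.

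Membrane lipid genes rose in 5 of 11, with 1 lower. DGD1, which makes digalactosyldiacylglycerol, had 64.4, 56.8 and 53.6 CPM in the unprimed libraries and 122, 129.8 and 110.0 CPM in the primed ones (log2 difference 1.05 ± 0.09 (SE), adjusted p = 1.11e-06), and the plastid desaturases FAD6 (92.0, 97.7 and 92.7 CPM in the unprimed libraries and 159, 140.3 and 139.9 CPM in the primed ones) and FAD5 (0.56) rose with MGD1 (0.27) and PDAT (0.31). The triacylglycerol enzyme DGAT1 fell (-0.86). DGD1 and FAD6 had separate groups. The higher count was 3 without unprimed replicate 2, without unprimed replicate 3 or without primed replicate 1. In oil mobilisation 1 of 13 rose, the glyoxylate enzyme ICL (109, 126 and 108 CPM in the unprimed libraries and 265, 247 and 313 CPM in the primed ones), and 1 fell, PCK1, of sugar synthesis from oil (240.0, 252 and 249 CPM in the unprimed libraries and 141, 146 and 158 CPM in the primed ones); 2 fell without unprimed replicate 2.

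In nitrogen uptake and assimilation 6 of 22 fell and 0 rose. The nitrate transporter NRT2.1 had 94.9996, 66.8 and 220.2 CPM in the unprimed libraries and 46.5, 34.5 and 27.2 CPM in the primed ones: unprimed replicate 3 was far above the others, and the call was lost without unprimed replicate 3, without primed replicate 2 or 3, with the replicate block or with the 6 libraries fitted alone. NRT2.2, its neighbour in sequence and function, fell too (-2.51), a call lost without unprimed replicate 3, without primed replicate 1, 2 or 3 or with no filter on low counts. Cytosolic glutamine synthetase GLN1.1 had 927, 1043 and 1011 CPM in the unprimed libraries and 695, 601 and 705 CPM in the primed ones (log2 difference -0.58 ± 0.12 (SE), adjusted p = 0.00229), and the dehydrogenases GDH1 (-0.34) and GDH2 (-0.53) fell. The count was 2 without unprimed replicate 3 or primed replicate 2, and 3 without primed replicate 1 or 3. Of the phosphate genes 5 of 16 fell, among them the transporters PHT1.1 (268, 289 and 288 CPM in the unprimed libraries and 219, 202 and 227 CPM in the primed ones) and PHT1.4 (-0.60), the exporter PHO1 (-0.34) and the galactolipid synthases MGD2 (-0.52) and MGD3 (-1.31); SQD1 of sulfolipid synthesis rose (19.3, 18.4 and 18.4 CPM in the unprimed libraries and 34.0, 32.0 and 29.9 CPM in the primed ones). The lower count was 2 without unprimed replicate 2 and 3 without any other single library, and the higher count 2 with the 6 libraries alone.

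Sulfur and iron genes stayed near the shares over all sequences. In sulfur 3 of 16 rose and 2 fell: the reductases APR1 (0.57) and APR2 (41.3, 25.6 and 19.1 CPM in the unprimed libraries and 76.2, 64.0 and 55.6 CPM in the primed ones) and the deficiency marker LSU2 (1.01) rose, and the sulfate importers SULTR1.1 (-1.88) and SULTR1.2 (59.5, 60.7 and 63.3 CPM in the unprimed libraries and 34.7, 42.6 and 41.5 CPM in the primed ones) fell. APR2 lost its call without unprimed replicate 2 or without primed replicate 1. In iron 3 of 19 rose, the ferritin FER4 (17.2, 15.4 and 15.03 CPM in the unprimed libraries and 24.1, 23.4 and 21.2 CPM in the primed ones), BTS (0.27) and BHLH101 (1.15), and NAS2 fell (-1.003); the higher count was 6 without unprimed replicate 1 and 1 without unprimed replicate 2 or 3 or primed replicate 1 or 2. BHLH101 lost its call without unprimed replicate 2 or 3 or without primed replicate 1 or 2.

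Protein handling outside the heat shock proteins changed in single genes. In the unfolded protein response 4 of 20 rose and 1 fell: the endoplasmic reticulum chaperone BIP1 had 74.1, 67.8 and 68.1 CPM in the unprimed libraries and 148, 159 and 161 CPM in the primed ones (log2 difference 1.16 ± 0.11 (SE), adjusted p = 1.94e-06), DER1 10.3, 9.21 and 8.80 CPM in the unprimed libraries and 19.6, 18.8 and 17.5 CPM in the primed ones and ERDJ3A 7.30, 8.65 and 8.79 CPM in the unprimed libraries and 11.8, 12.8 and 14.8 CPM in the primed ones, with BZIP17 (0.36) also higher and CRT3 lower (-0.52). BIP1 and DER1 groups were separate. BIP3, the usual marker of this response, had 8.57, 7.07 and 8.01 CPM in the unprimed libraries and 6.16, 7.28 and 9.59 CPM in the primed ones and did not pass the test. The lower count was 2 with DESeq2 or with nuclear library sizes and no factor. The proteasome list gave 1 higher (RPN6, 0.47) and 1 lower (NAC078, -0.31, lost without unprimed replicate 1 or without primed replicate 1) of 21. That was 4.76% each way, under the shares over all sequences. Autophagy gave 3 higher of 18 (16.7%, against 12.1% over all sequences), all ATG8 genes. ATG8A had 30.8, 29.6 and 29.0 CPM in the unprimed libraries and 47.6, 45.1 and 39.6 CPM in the primed ones. ATG8B (0.30) and ATG8H (0.44) rose too. In that list 1 was called higher without unprimed replicate 2 or 3 or primed replicate 1 or 2. With nuclear library sizes and no factor 1 was higher and 2 were lower, and DESeq2 called 1 lower. ATG8B lost its call without unprimed replicate 2 or 3, without primed replicate 1 or 2, with the replicate block, with RLE factors, with nuclear library sizes and no factor or with no filter on low counts, and ATG8H without unprimed replicate 2 or 3, without primed replicate 1 or 2 or with nuclear library sizes and no factor.

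RNA and translation genes moved little. Cytosolic ribosomal proteins rose in 5 of 17 by at most 0.30 log2, and the count was 0 to 2 without unprimed replicate 2 or 3 or any primed replicate, 0 with libraries scaled to nuclear reads without a factor, 1 with RLE factors, 2 with no filter on low counts, 9 with the 6 libraries alone and 8 with DESeq2. RPL23AA also lost its call with the replicate block. All 17 lay above 0, with a median of 0.24, and 29.4% were called higher, against 12.1% over all sequences. The primed libraries lay wholly above for 12 of the 17, against 21.5% of all sequences. By edgeR, 11 were higher at an unadjusted p under 0.05. Translation factors gave 0 of 11 by edgeR (5 higher and 0 lower at an unadjusted p under 0.05) and 3 by DESeq2 or with the 6 libraries alone, and ribosome biogenesis 1 of 19 (SWA3, 0.50), 2 without unprimed replicate 1. In splicing, SR30 rose with 37.1, 31.8 and 30.3 CPM in the unprimed libraries and 88.5, 92.9 and 81.5 CPM in the primed ones (log2 difference 1.41 ± 0.10 (SE), adjusted p = 7.93e-08), SR45A with 54.1, 63.3 and 55.7 CPM in the unprimed libraries and 93.9, 82.9 and 82.6 CPM in the primed ones, and SC35 (0.42) and RSZ22A (0.30) also rose. The glycine-rich RNA-binding clock outputs GRP7 (2.76, 2.74 and 2.17 CPM in the unprimed libraries and 1.23, 1.66 and 1.42 CPM in the primed ones) and GRP8 (-0.55) fell. That made 4 of 23 higher and 2 lower. There were 7 higher without unprimed replicate 1, and 1 lower without unprimed replicate 2 or primed replicate 2.

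Alternative respiration gave 2 of 13 higher and 2 lower, 15.4% each, against 12.1% and 10.7% over all sequences. NAC013, a mediator of mitochondrial stress signals, had 16.5, 13.6 and 11.1 CPM in the unprimed libraries and 28.0, 24.4 and 20.5 CPM in the primed ones, and UPOX, a mitochondrial stress marker, 1.44, 1.51 and 1.05 CPM in the unprimed libraries and 4.59, 4.37 and 3.04 CPM in the primed ones; BCS1 (-0.82) and the dehydrogenase NDA2 (-0.40) fell. AOX1A, the alternative oxidase, had 127, 124 and 93.8 CPM in the unprimed libraries and 149, 102 and 93.6 CPM in the primed ones, with no separation. Lower calls numbered 1 without unprimed replicate 1 or 2, and 0 without primed replicate 2, where BCS1 lost its call.

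Proliferation genes stayed close to the shares over all sequences. The cell cycle list gave 3 of 24 higher, CYCD3;3 (3.21, 2.96 and 3.43 CPM in the unprimed libraries and 4.54, 5.42 and 4.59 CPM in the primed ones), CYCD3;2 (0.31) and WEE1 (1.63), and 1 lower (AUR1, -1.01, lost without unprimed replicate 2 or without primed replicate 1 or 3). The mitotic cyclin CYCB1;1 had 2.17, 1.83 and 1.75 CPM in the unprimed libraries and 1.94, 1.99 and 1.76 CPM in the primed ones and did not pass the test. In replication 3 of 21 rose, led by CDC45 (1.38, 1.49 and 2.41 CPM in the unprimed libraries and 3.56, 3.44 and 4.35 CPM in the primed ones), and 2 fell (HTR2, -0.51, and FAS1, -0.74); 1 fell without unprimed replicate 2 or primed replicate 3, and 5 fell by DESeq2. FAS1 lost its call without unprimed replicate 2 or 3 or without primed replicate 3. Of 18 DNA damage genes 3 rose and SOG1 fell (-0.32; 0 fell without unprimed replicate 1 or primed replicate 1). Among them was SMR5, a cyclin-dependent kinase inhibitor, with 0.781, 0.901 and 1.13 CPM in the unprimed libraries and 7.51, 6.79 and 6.72 CPM in the primed ones, but all of its 31-base words lie in the overlapping neighbour AT1G07510, so its reads cannot be assigned.

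The organellar transcripts were described within the whole pool and within each organelle. Plastid genes took 54.1% ± 3.93 of the counts in unprimed and 48.9% ± 3.099 in primed libraries (SD, n = 3), 5.22 points less (2.17 points less with psbA left out of the counts, exact permutation p = 0.3), with p = 0.2 (two-sided exact permutation test; 3 against 3 cannot go below 0.1). The mitochondrial share was 1.78% ± 0.0266 and 1.84% ± 0.0982 (exact permutation p = 0.4). Of 90 plastid loci 14 rose (15.6%) and 1 fell (1.11%). Of 123 mitochondrial loci 23 rose (18.7%) and 2 fell (1.63%). Over all sequences the shares were 12.1% higher and 10.7% lower. Scaled within each organelle instead, 7 plastid loci were higher and 1 lower, whereas 0 mitochondrial loci were higher and 6 lower.

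Of 14 plastid ribosomal protein genes 6 rose (median 0.33), among them rpl14 (ATCG00780), with 49.6, 55.3 and 55.6 CPM in the unprimed libraries and 75.4, 63.5 and 81.6 CPM in the primed ones (log2 difference 0.46 ± 0.12 (SE), adjusted p = 0.0115). Of 4 RNA polymerase genes 3 rose: rpoA (0.39), rpoB (0.45) and rpoC2 (76.6, 81.9 and 91.4 CPM in the unprimed libraries and 124, 108 and 128 CPM in the primed ones). Within the plastid 3 ribosomal and 2 polymerase genes kept a call. By contrast, some plastid groups, which hold only loci with a matched name, had 0 calls by edgeR in the whole pool or within the plastid. They included photosystem I (3 genes, median -0.39), the NDH complex (8, median -0.21), ATP synthase (4, -0.17) and the cytochrome complex (4, -0.07). Another 34 plastid loci carried no matched name. Of these 5 were higher in the whole pool, among them ATCG01250 (0.51), and 2 within the plastid. Whether any of them belong to these complexes was not tested. In photosystem II 1 of 14 fell, psbN (ATCG00700), with 632, 829 and 782 CPM in the unprimed libraries and 360.3, 289 and 395 CPM in the primed ones (log2 difference -1.10 ± 0.21 (SE), adjusted p = 0.00212). psbN lies on the opposite strand to the psbB operon, and the counts are not separated by strand. Among named mitochondrial genes ccmC, of cytochrome c maturation, fell, with 15.96, 15.02 and 13.7 CPM in the unprimed libraries and 5.93, 5.80 and 6.20 CPM in the primed ones (log2 difference -1.32 ± 0.16 (SE), adjusted p = 3.90e-05); it lies under the level limit and is named after its values were seen. The ribosomal rps3, rps4 and rps7 rose (0.36, 0.28 and 0.49) in the whole pool and had 0 calls within the mitochondrion, and 20 of the 23 higher loci carried no matched name. Leaving out single libraries gave 9 higher organellar loci without unprimed replicate 1, 18 and 19 without unprimed replicates 2 and 3, and 10 each without primed replicates 1 and 3, against 37; lower loci were 7 without primed replicate 3, against 3.

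**Figure D5:**
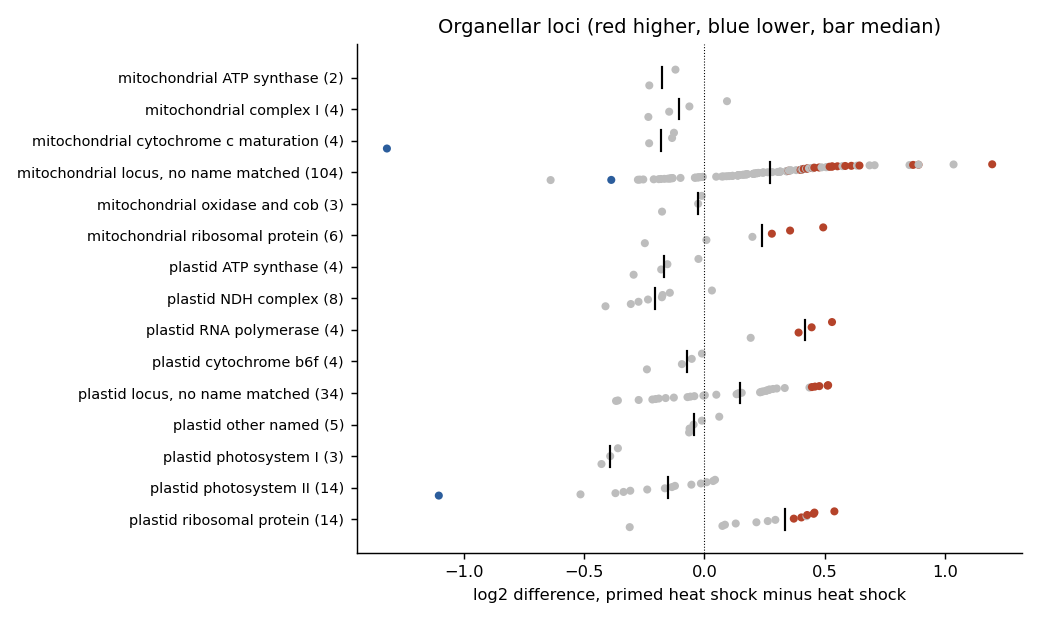
Log2 difference between primed and unprimed heat-shocked seedlings (horizontal axis) for 213 organellar loci by group, with the group size in brackets. Groups of known function hold only loci with a matched name. Bars are medians: those of plastid polymerase and ribosomal protein genes lie above 0 and those of photosystem I and NDH genes below, with single loci on the other side in the ribosomal and NDH groups; psbN and ccmC are the lowest points.

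Fewer of the entries outside gene loci were called. Transposon and intergenic entries rose in 90 of 1490 (6.04%) and fell in 40 (2.68%), and other noncoding entries rose in 48 and fell in 31 of 1028 (4.67% and 3.02%), all under the shares over all sequences. Calls past 2-fold numbered 91 of the 1490 and 63 of the 1028, against 1592 of the 26159 sequences. Of 45 microRNA precursors 3 rose and 0 fell. The precursor of miR824, which targets AGL16 in Arabidopsis, had 0.0755, 0.0792 and 0.0960 CPM in the unprimed libraries and 0.355, 0.270 and 0.257 CPM in the primed ones for ath-MIR824 (log2 difference 1.79 ± 0.43, adjusted p = 0.00666), and the log2 difference of ath-MIR5642b was 0.63 ± 0.16. The nuclear gene entry MIR824 (AT4G24415) had 5.12, 6.16 and 6.48 CPM in the unprimed libraries and 25.0, 22.8 and 23.8 CPM in the primed ones. These are levels of total RNA on the precursor entries, not of mature microRNA.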

How the data were processed

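Total RNA of whole seedlings was depleted of ribosomal RNA and made into strand-specific libraries, per the labels' protocols. Bowtie2, SAMtools, DESeq2 and TAIR10 are named in the submitters' processing notes, with no versions or order given. The deposited files hold whole-number read counts per sequence in the layout of SAMtools idxstats, with no split by strand. How reads matching several sequences were placed is not given in the sources used here. Counts of the ribosomal RNA entries were left out.

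The 12 libraries were fitted together with edgeR 4.0.16 (R 4.3.3; robust quasi-likelihood fit, group means, TMM factors, filterByExpr with a minimum count of 10), and the contrast was primed heat shock minus heat shock. P-values were adjusted by Benjamini-Hochberg over all 26159 sequences, with a threshold of 0.05. Standard errors of log2 differences were derived from the F statistic of each test. Shares were compared with a two-sided exact permutation test (scipy 1.17.1). In data simulated for this contrast, with 25772 sequences tested, 96% of 4-fold and 88% of 2-fold changes were recovered, and 3.66% of calls were false. The simulation changed 200 sequences, none at the lowest levels, and kept the group means equal otherwise. Its rates do not cover differences under 2-fold, which most calls here are, nor a contrast with as many changes. Alternatives were a replicate block, RLE factors, nuclear scaling with and without TMM, no filter, the 6 libraries alone, each library left out and DESeq2 1.42.0.

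The same replicate number marks a shared harvest date in the labels, which is where the pairing comes from. The correlations of same-numbered deviations were 0.0192, -0.0765 and 0.115.

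Members and gene lists were chosen with earlier results of these data known. The genes named were up to 3 of each list by size of change. Outside the lists they were the 15 largest changes in each direction with at least 20 CPM and separate groups. All of these carry a gene symbol, so loci without one may hold larger changes. Other genes named were chosen after their values were seen. Gene positions, promoters and overlaps came from RefSeq (TAIR10.1). Some single-gene results are not reported here.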

Additional observations from a re-analysis of the deposited data

Results flagged for a closer look

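Reads on the bacterial selection marker nptII, which wild-type seedlings do not carry, were found in unprimed replicate 1 and in no other library. That library held 86 such reads, against 0 in the other 11 libraries, the untreated ones included. The entry takes no part in any comparison above.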

How the results depend on the processing

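Over all sequences the counts of 3161 higher and 2806 lower became 3463 and 3493 with DESeq2, 3904 and 3387 with the 6 libraries alone, and 2518 and 3288 with nuclear library sizes and no factor. With the replicate block, which pairs libraries by harvest date, they were 3304 and 2949, and 5752 of the 5967 calls were also made. The block ended the calls of 6 of the 170 genes named by size of change: LOX2, CKX4, ATG8B, RHD6, NRT2.1 and RPL23AA. The block moved 6 of 100 list counts by more than 1.5 times. Leaving out 1 library at a time gave 2180 to 3057 higher and 1851 to 2682 lower sequences. It gave 9 to 39 higher and 2 to 7 lower organellar loci, plastid share differences from -7.40 to -3.59 points and mitochondrial ones from 0.0107 to 0.108 points. The count of 3 lower organellar loci became 10 with nuclear library sizes and no factor, 6 with no filter, 9 with the 6 libraries alone, 6 with DESeq2 and 7 when scaled within each organelle, where 7 were higher. With ribosomal RNA kept, the mitochondrial share difference was -0.193 points, the opposite sign; ribosomal reads entering the total are the alternative's own construction. Of the 170 genes named by size of change 34 lost their call in at least 1 setting and 0 changed direction. Genes named beyond these 170, such as CERK1 and NPR1, are not covered by that count. The cause of the other moves was not tested. Small differences and genes near 0 CPM are where depth and 3 libraries per group limit the result.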
